A study of Mus musculus with 2 samples.

Results

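The genes described here are 10 receptors and adaptors of the CD300 and TREM system of myeloid cells: the CD300 receptors Cd300a, Cd300c2, Cd300e, Cd300lb, Cd300ld and Cd300lf, the TREM receptors Trem1 and Trem2, and the adaptors Tyrobp (DAP12) and Hcst (DAP10). They were chosen by name, and all 10 were among the 34714 genes of the expression table. Both libraries came from bone marrow-derived macrophages of C57BL/6 mice, differentiated in 20 ng/mL of the growth factor M-CSF (macrophage colony-stimulating factor). For 24 h, the macrophages of the first library received FGK45, an anti-CD40 antibody used to activate the receptor CD40, and those of the second received IgG. With 1 library in each group, the spread between cultures is unknown, no replicate backs any difference and no test was made. The labels do not say how many mice or cultures a library holds.

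CD300 and TREM receptors are small surface proteins with an immunoglobulin fold, many of which bind lipids exposed on dying cells. Activating members have short tails and signal through partner adaptors: DAP12 and the Fc receptor gamma chain carry an activation motif that recruits the kinase Syk, and DAP10 carries a motif that recruits phosphatidylinositol 3-kinase. Inhibitory members carry motifs in their own tails that recruit phosphatases such as SHP-1, and macrophages express both kinds side by side.

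Values are FPKM, which scale the number of fragments by transcript length and by library size, so levels of different genes can be compared per length. A fit to the steps in the deposited values gave 6.16 gigabases of aligned sequence with anti-CD40 and 5.58 gigabases with IgG. Ratios are given as FPKM with anti-CD40 over FPKM with IgG, with 95% exact conditional binomial intervals on approximate fragment numbers, and these intervals cover counting error only. Ratios are read against all genes: the median ratio of 9101 genes that reached 1 FPKM in each library was 1.11. All 8 macrophage markers examined were above 1 FPKM in at least 1 library. Their summed level was 14890.2 FPKM under anti-CD40 and 12682 under IgG, mostly Lyz2 (13422.8 and 11325.8). Of the rest, Fcgr1 was lower with anti-CD40 (27.1 and 30.3), Csf1r was near level (332.8 and 333.5) and the others were higher. Of 8 markers of neutrophils and their precursors, S100a9, Ly6g, Mpo, Ngp and Ltf were listed at 0 in both libraries. The sum was 1.90 and 1.24 FPKM, mostly S100a8 (1.82 and 1.11), the 1 marker of the 8 that reached 1 FPKM. Natural killer cell markers summed to 0.273 and 0.202 FPKM, with Ncr1, Prf1, Gzma and Eomes at 0, and dendritic cell markers to 0.241 and 0.115, with Flt3 at 0. Mast cell and basophil markers (0.858 and 0.845) and B cell markers (0.617 and 0.267) were as low. Osteoclast markers summed to 53.3 and 47 FPKM, mostly Ctsk (46.0 and 38.1), with 2 of 5 at 1 FPKM or more and Calcr at 0. Plasmacytoid dendritic cell markers summed to 71.3 and 67.3 with 2 of 4, Irf8 (69.3 and 62.9) and Tcf4 (1.93 and 4.32). Siglech (0.056 and 0.162) and Ccr9 (0.017 and 0) were below 1 FPKM. T cell markers summed to 3.94 and 3.04 with 1 of 4, all of it Cd4, since Cd3e, Cd3d and Cd8a were at 0. What part such cells have in the values below was not tested. In bulk RNA, fewer cells of a type and less RNA per cell cannot be told apart.

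The levels of the 10 genes spanned from the top of the transcriptome to the detection limit. Trem2 and Tyrobp stood above 1000 FPKM in both libraries, Cd300a and Cd300c2 above 100, Hcst, Cd300lb and Cd300ld between 10 and 100, and Cd300lf just above 1. Cd300e and Trem1 stayed below 1 FPKM in both. The order of the 10 genes by level was the same in both libraries, and the closest neighbours in it were Hcst and Cd300lb with anti-CD40 (57.6 and 45.7 FPKM) and Cd300a and Hcst with IgG (108 and 80.2). Whether such neighbours differ by more than the spread between cultures is unknown. With anti-CD40, Cd300c2 and Cd300lb were higher by more than the median gene, and Hcst, Trem2 and Cd300ld were lower. Tyrobp and Cd300a lay within 8% of equality.

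**Figure D1:**
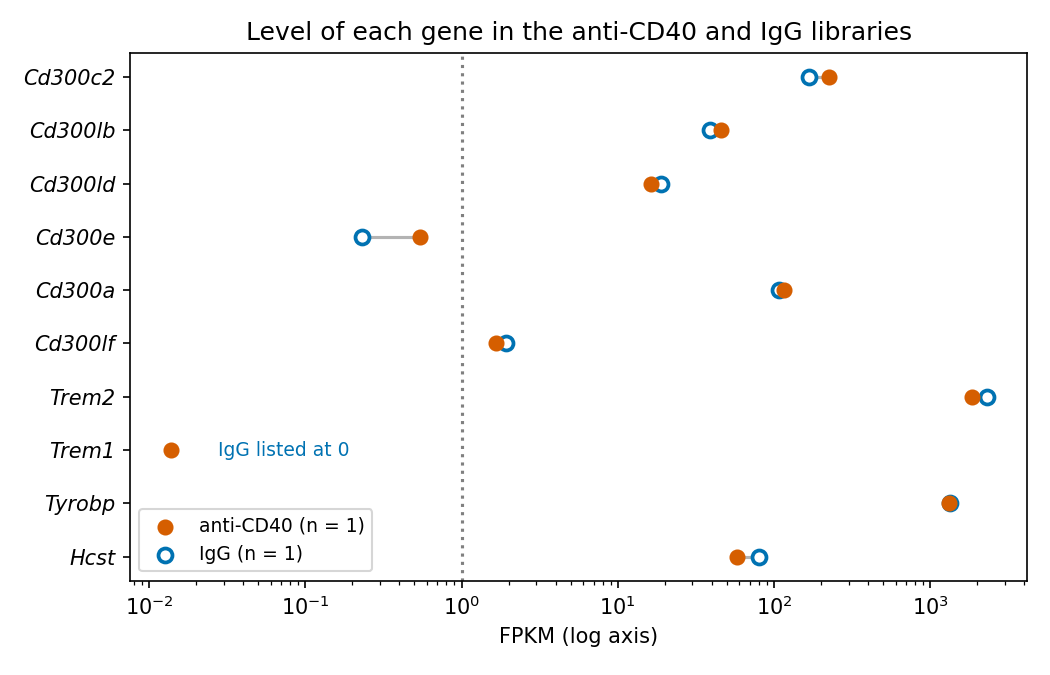
Level of each of the 10 genes in FPKM on a log axis, with the anti-CD40 library as a filled point and the IgG library as an open point (1 library each); the dotted line marks 1 FPKM. The pairs of points lie close together compared with the distance between genes, from 1837 and 2296 FPKM for Trem2 down to Trem1, which was listed at 0 with IgG.

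On the log2(FPKM + 1) scale, 0 of the 8 genes at 1 FPKM or more were 2-fold apart, beside 0.563% of the 9591 genes at that level (0.25% higher and 0.313% lower with anti-CD40). A smaller distance of 0.32 (log2) from the median log2 ratio of all genes was passed by 21.4% of genes. By this mark 0 of the 8 were higher, where 7.49% of all genes were, and 3 were lower (Hcst, Trem2 and Cd300ld), where 13.9% of all genes were. The median log2 ratio of the 8 was -0.08, against 0.12 over all 9591 genes, and 2 of the 8 (Cd300c2 and Cd300lb) lay above that median. Measured from the tenth of genes closest in level instead of all genes, 1 was higher (Cd300c2, at 0.42) and 2 were lower, since Trem2 at -0.30 then fell short of the mark. The share of all genes past the mark on that baseline was not computed, so these 2 counts have no background. Cd300e and Trem1 did not reach 1 FPKM and are not in these counts.

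Trem2, the receptor for lipids and apolipoproteins that is best known from microglia, lipid-laden macrophages and osteoclasts, was the most abundant of the 10. It stood at 1837 FPKM with anti-CD40 and 2296 FPKM with IgG, above 99.7% of genes at 1 FPKM or more by mean level. The library with anti-CD40 was the lower, at a ratio of 0.80 with a counting interval from 0.789 to 0.811. Its log2 ratio of -0.32 was undercut by 8.26% of genes. Abundant genes as a class leaned the same way: the median log2 ratio of the 84 genes whose mean was at least 1000 FPKM was -0.15, with the central 80% between -0.65 and 0.29. Measured from the tenth of genes closest to it in level, Trem2 was lower by a log2 difference of -0.30. Trem2 lies on the plus strand of chromosome 17, from 48346401 to 48352276 (GRCm38.p6).

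Trem1, which amplifies inflammatory signals in neutrophils and monocytes, was at the limit of detection. It had 0.014 FPKM with anti-CD40, which is under 1 fragment at this depth, and was listed at 0 with IgG. A count of 3 fragments would correspond to 0.058 FPKM under anti-CD40 and 0.064 under IgG, so a difference below that level was not detectable and no ratio is given. Trem1 and Trem2 span 119.6 kilobases of chromosome 17 from end to end. Between and beside them, Trem3 was listed at 0 in both libraries, Treml4 had 0.042 against 0.105 FPKM, and Treml2 had 0.405 against 0.514. Treml1, the platelet receptor TLT-1, was the other TREM gene above 1 FPKM, with 6.53 FPKM against 5.74 (ratio 1.14, interval 0.902 to 1.45). Of the megakaryocyte markers beside it, Itga2b had 7.77 and 8.29 FPKM, Ppbp 2.32 and 1.56, and Gp9 0.545 and 0.10. Their part in the Treml1 value was not tested.

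Tyrobp, the gene of DAP12, stands next to Hcst on chromosome 7 in the opposite orientation, with 129 bases between the annotated ends of the genes (Tyrobp from 30413782 to 30417582, Hcst from 30417712 to 30419854). Tyrobp was nearly level, at 1322 FPKM under anti-CD40 and 1343 under IgG. Its ratio was 0.985 with an interval from 0.962 to 1.01, and its log2 ratio turned from -0.02 to 0.03 when both libraries were rescaled to the same sum. Hcst was lower with anti-CD40, at 57.6 FPKM against 80.2 with IgG. That is 1.39-fold lower with an interval from 1.24 to 1.57, the furthest from the median of the 8 genes at 1 FPKM or more, and 4.04% of all genes had a lower log2 ratio than its -0.47. Hcst transcripts are short, with a median of 428 bases. The 1565 genes with transcripts of 700 bases or less had a median log2 ratio of 0.10 and a 10th percentile of -0.35, and the longer ones 0.13 and -0.25. Against the tenth of genes nearest in length, Hcst was lower by a log2 difference of -0.56. Tyrobp was 16.7 times as abundant as Hcst with IgG and 22.9 times with anti-CD40. The strand setting of the quantification is not given in the sources used here, and reads that run past the end of Tyrobp cannot be told apart from reads of Hcst.

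The third adaptor of the pathway, Fcer1g, which encodes the Fc receptor gamma chain, had 2989 FPKM under anti-CD40 and 3165 under IgG, a ratio of 0.944 with an interval from 0.932 to 0.958. Cd247, the zeta chain of T and natural killer cells, was below 1 FPKM in both. All 3 adaptors at 1 FPKM or more had ratios below 1 and lay below the median of all genes. Of all 9591 genes at that level, 3092 had ratios below 1 and 4796 lay at or below the median. The log2 difference from the median was -0.14 for Tyrobp, -0.20 for Fcer1g and -0.59 for Hcst. Against genes of like level it was 0.00 for Tyrobp, -0.06 for Fcer1g and -0.54 for Hcst. The ratio of Tyrobp passes above 1 when the sums are made equal.

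**Figure D2:**
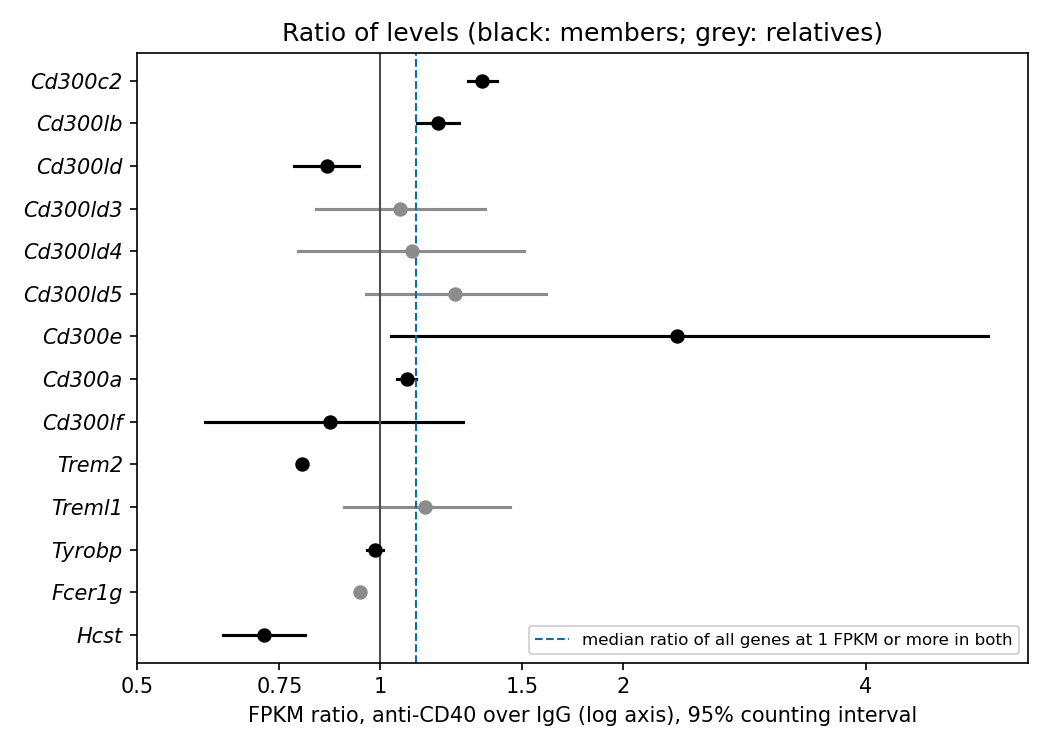
FPKM ratio of anti-CD40 over IgG on a log axis for the members (black) and their relatives (grey), with 95% counting intervals as horizontal lines; the solid line marks a ratio of 1 and the dashed line the median ratio of all genes, 1.11. Cd300c2 lies to the right of both lines with its whole interval, and Trem2, Hcst and Cd300ld lie to the left of both; Trem1 has no ratio and is not drawn.

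The activating CD300 receptors were split. Cd300c2, which pairs with DAP12 and is also known as MAIR-II or CLM-4, was the most abundant CD300 gene and the one with the largest difference upward among those at 1 FPKM or more. It had 224 FPKM under anti-CD40 and 168 under IgG, which is 1.34-fold higher (interval 1.28 to 1.40). Its log2 ratio of 0.42 was above those of 91.0% of genes and 0.30 above the median, just short of the 0.32 mark, which it passed against genes of like level. Cd300lb, an activating receptor also known as LMIR5 that uses DAP12, had 45.7 FPKM against 38.8. This is 1.18-fold higher with a lower counting bound of 1.11, and a log2 difference of 0.11 from the median of all genes.

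Cd300ld, known as LMIR4 or CLM-5 and coupled to the Fc receptor gamma chain, went the other way. It had 16.3 FPKM under anti-CD40 and 19 under IgG, a ratio of 0.859 (interval 0.782 to 0.942). Relative to the median of all genes its log2 difference was -0.33, just past the 0.32 mark on the lower side. Cd300e, an activating receptor of monocytes, had 0.540 FPKM against 0.231, from about 23 and 9 fragments. Its ratio of 2.33 has an interval from 1.03 to 5.68, so the size of the difference is hardly constrained. The activating receptors therefore did not share a direction, and their sum followed Cd300c2: 287 FPKM under anti-CD40 and 226 under IgG, a ratio of 1.27.

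Of the inhibitory receptors, Cd300a was abundant and Cd300lf was low. Cd300a, which carries inhibitory motifs and binds phosphatidylserine on dying cells, had 116 FPKM under anti-CD40 and 108 under IgG, which is 1.08-fold higher (interval 1.05 to 1.11). That places it at the median of all genes, and its log2 ratio turned from 0.11 to -0.01 when centred on that median. Cd300lf, an inhibitory receptor known as CLM-1, had 1.67 FPKM against 1.93. It rested on about 61 and 63 fragments, and its ratio of 0.868 has an interval from 0.606 to 1.27, so a difference was not detectable at this depth. The sum of both was 118 FPKM against 109.8, a ratio of 1.08, of which Cd300a made up 98.6% and 98.2%. The activating sum was 2.43 times the inhibitory sum with anti-CD40 and 2.06 times with IgG, a shift of 1.18-fold. Rescaling a whole library cannot change this shift, but no replicate backs it. It rests mostly on Cd300c2 (ratio 1.34) set against Cd300a (1.08), and it was not computed without Cd300c2. Cd300c2 alone made up 55.4% of the summed CD300 level of the 6 genes with anti-CD40 and 49.97% with IgG.

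**Figure D3:**
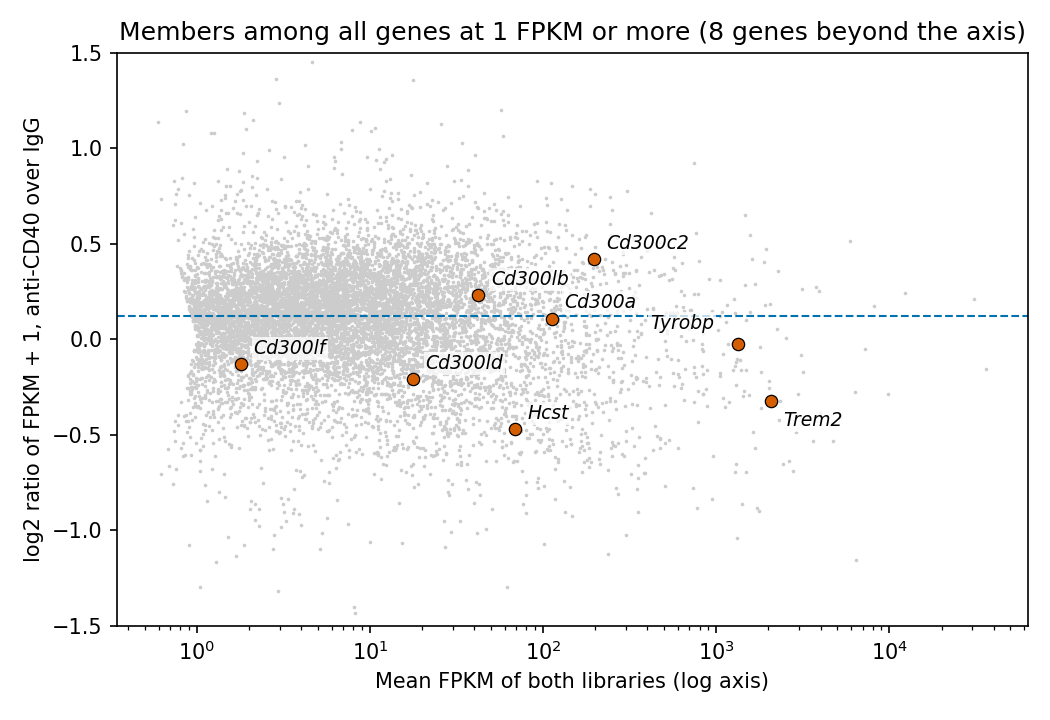
log2 ratio of FPKM + 1 (anti-CD40 over IgG) against the mean FPKM of both libraries on a log axis for 9591 genes at 1 FPKM or more (grey), with the 8 members that reach this level in orange and the median of all genes, 0.12, as a dashed line; 8 genes lie beyond the vertical axis. Cd300c2 sits above the line at 0.42, and Hcst (-0.47) and Trem2 (-0.32) sit below it.

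The 6 CD300 members lie within 246 kilobases of chromosome 11 (114889152 to 115135372, GRCm38.p6), Cd300a on the plus strand and the other 5 on the minus strand. The same cluster holds close copies that were measured too. Cd300ld3 had 8.60 FPKM against 8.13, Cd300ld4 5.05 against 4.61 and Cd300ld5 8.47 against 6.85, and the sum of these 3 was 22.1 against 19.6, a ratio of 1.13. Cd300ld2 (0.257 and 0.358 FPKM), Cd300c (0.186, and listed at 0 with IgG) and Cd300lg (0.125 and 0.261), which lies elsewhere on the chromosome, were below 1 FPKM. Copying matters for how reads are assigned. Of all windows of 150 bases in the annotated transcripts of Cd300ld5, 100% also occur in transcripts of Cd300ld2, Cd300ld3 or Cd300ld4, and 79.5% and 78.7% of those of Cd300ld3 and Cd300ld4 occur in another copy, so single values of these 3 genes are uncertain. For the 10 members the share was 0%, Cd300ld included. In the RefSeq annotation Cd300c2 and Cd300ld4 overlap on the same strand by 311 bases.

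The promoters of Cd300ld and its copies resemble each other as well. RefSeq (GRCm38.p6) promoters, from 250 bases before to 50 after the start, were matched by symbol for 9 of the 10 genes (all but Tyrobp). A single start was used per gene, and other starts were not searched. For Cd300a, Cd300c2, Cd300e, Cd300lf, Trem1 and the copies Cd300ld3, Cd300ld4 and Cd300ld5 that start lies inside the annotated span of the gene. The Cd300c2 window printed below ends at 115002130, whereas the gene reaches to 115004261. Each was searched on both strands for AGGAAGT, letters read by ETS factors such as PU.1, which specifies macrophages. These letters were picked after several others had been counted, so the counts are a description. They occurred in 6 of the 9 promoters, and in 9.35% of 32851 promoters of the same length in the whole table. Cd300c2, Cd300e and Hcst hold them before the start on the gene's own strand, as does Cd300ld at 2 places, Trem1 holds them on the opposite strand, and Cd300lf holds them from base 2 after the start. They are not in the windows of Trem2, Cd300a and Cd300lb. The 250 bases before the start are shown, 5′ to 3′ on the strand of the gene, for the genes with the largest differences either way (Cd300c2, Hcst and Trem2), and for Cd300ld beside its relative Cd300ld4, with AGGAAGT in capitals. The places are chr11:115001881-115002130, chr7:30419855-30420104, chr11:114989887-114990136 and chr11:115026934-115027183 on the minus strand and chr17:48346151-48346400 on the plus strand.
Cd300c2: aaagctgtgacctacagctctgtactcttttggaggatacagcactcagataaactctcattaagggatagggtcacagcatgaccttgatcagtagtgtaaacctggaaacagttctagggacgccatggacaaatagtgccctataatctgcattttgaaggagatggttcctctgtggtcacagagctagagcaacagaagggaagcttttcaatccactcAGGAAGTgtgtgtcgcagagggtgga
Hcst: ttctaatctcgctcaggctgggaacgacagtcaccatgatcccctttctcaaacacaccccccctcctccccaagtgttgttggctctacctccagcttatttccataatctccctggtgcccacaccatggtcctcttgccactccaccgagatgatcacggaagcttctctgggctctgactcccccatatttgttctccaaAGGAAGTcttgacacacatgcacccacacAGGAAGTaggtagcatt
Trem2: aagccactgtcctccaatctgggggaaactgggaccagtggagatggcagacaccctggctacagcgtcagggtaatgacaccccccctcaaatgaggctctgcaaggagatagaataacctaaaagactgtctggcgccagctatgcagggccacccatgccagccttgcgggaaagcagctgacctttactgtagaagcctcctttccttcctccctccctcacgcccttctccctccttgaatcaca
Cd300ld: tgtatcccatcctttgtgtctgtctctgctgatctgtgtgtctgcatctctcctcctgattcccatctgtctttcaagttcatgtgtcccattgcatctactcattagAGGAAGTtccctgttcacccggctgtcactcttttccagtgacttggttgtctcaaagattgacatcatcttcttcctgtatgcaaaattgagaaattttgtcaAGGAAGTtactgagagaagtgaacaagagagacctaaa
Cd300ld4: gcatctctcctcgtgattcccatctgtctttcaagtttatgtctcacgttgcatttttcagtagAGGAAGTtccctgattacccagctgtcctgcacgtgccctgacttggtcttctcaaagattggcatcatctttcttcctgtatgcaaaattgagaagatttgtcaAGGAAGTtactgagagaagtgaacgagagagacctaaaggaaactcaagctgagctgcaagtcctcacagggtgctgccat

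The single match of Cd300c2 begins 26 bases before the start, and those of Hcst begin 46 and 17 bases before it. Those of Cd300ld begin at 142 and 38 bases and those of Cd300ld4 at 186 and 81. The windows of Cd300ld4 and Cd300ld5 are identical (100%), that of Cd300ld3 is 95% identical to both, and Cd300ld is 65.7% identical to Cd300ld4. Identity was counted over the whole alignment of the 2 windows, gaps included. The matches of Cd300ld and Cd300ld4 lie at different distances from the start, so an offset between their windows lowers the 65.7%. Identity over the shared stretch alone was not computed. Cd300c2 and Hcst both hold the letters near the start, and Trem2 does not hold them in this window. Only these exact letters were searched. Whether they bear on the level or direction of a gene was not tested.

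DAP12 serves many receptors besides Trem2, and 6 of 13 other such receptors reached 1 FPKM. Their median log2 ratio was 0.21, with 4 of the 6 above the median of all genes. Past the 0.32 mark, 0 of the 6 were higher and 1 was lower, beside 7.49% and 13.9% of all genes. Clec5a, a lectin-like receptor of myeloid cells, had 6.50 FPKM against 4.93, a ratio of 1.32 with an interval from 1.04 to 1.69. Cd200r4, an activating relative of the CD200 receptor, had 13.4 FPKM against 10.6. The activating partners of the inhibitory receptors SIRP alpha and PILR alpha were low: Sirpb1b had 1.21 against 0.881, Pilrb1 2.14 against 1.76, and Sirpb1c 1.85 against 2.05. Both of these families hold similar copies, so the values of single genes are uncertain. Pilrb2 had 4.21 against 5.39 FPKM and was the gene past the mark. Together with Trem1 these 13 receptors, none of them a CD300 gene, summed to 30.1 FPKM against 26.2, a ratio of 1.15, and so were small beside Trem2. Among 17 receptors, which add Trem2 and the CD300 genes that use DAP12 (Cd300c2 and Cd300lb), Trem2 made up 85.9% of the summed level with anti-CD40 and 90.8% with IgG, and Cd300c2 10.5% and 6.63%. That sum was 1.62 times the level of Tyrobp with anti-CD40 and 1.88 times with IgG. Without Trem2 it was 300.3 FPKM against 233, a ratio of 1.29. With the CD300 genes left out, the sum including Trem2 was 1.41 and 1.73 times Tyrobp.

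Downstream of the adaptors, 23 of 24 listed kinases and signalling proteins reached 1 FPKM, with a median log2 ratio of 0.24 and 16 above the median of all genes. Past the 0.32 mark, 2 of the 23 were higher and 1 was lower, beside 7.49% and 13.9% of all genes. Syk, the kinase recruited by DAP12, had 71.8 FPKM against 62.4, a ratio of 1.15 with an interval from 1.10 to 1.20. The 2 higher genes were Lat2, a membrane adaptor of myeloid cells (232 FPKM against 143, a ratio of 1.63), and Bcl10, which links Card9 to NF-kB (15.3 against 9.57, a ratio of 1.60). Pik3cd, a catalytic subunit of phosphatidylinositol 3-kinase, had 22 FPKM against 16.6, and Vav3, a guanine nucleotide exchange factor, 2.46 against 1.68. The lower gene was Lat, the adaptor best known from T cells, with 7.81 FPKM against 10.4. Card9 (41.5 and 43.4 FPKM), Blnk (62.6 and 63.7) and Plcg2 (23.4 and 22.1) were near level.

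Proteins that restrain this signalling lay on both sides. Of 16 listed, 14 reached 1 FPKM, with a median log2 ratio of 0.15, 2 past the 0.32 mark on the higher side and 3 on the lower, beside 7.49% and 13.9% of all genes. The phosphatase Ptprj had 19.2 FPKM against 13.5 and the adaptor Dok1 41.3 against 30.1. Inpp5d, the lipid phosphatase SHIP1, had 29.5 against 22.2 and Ptpn11, the phosphatase SHP-2, 4.60 against 3.48. Ptpn6, the gene of SHP-1, which inhibitory receptors such as Cd300a recruit, had 119 FPKM against 109, a ratio of 1.10 with an interval from 1.0 to 1.20. Lower with anti-CD40 were the adaptor Dok3 (77.7 FPKM against 113, 1.46-fold lower with an interval from 1.39 to 1.54), Csk, the kinase that shuts off Src kinases (65.7 against 89.5), and Sla, an adaptor that targets receptors for degradation (4.78 against 6.64). Dok2 had 26.8 against 28.5.

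Of 12 listed ligands, sheddases and partners of the TREM receptors, 7 reached 1 FPKM, with a median log2 ratio of 0.27. Past the 0.32 mark either way were 0 of these 7, beside 21.4% of all genes. Apoe, a ligand of Trem2, had 8699 FPKM against 7695, a ratio of 1.13 with an interval from 1.12 to 1.14. The proteases that cleave Trem2 from the surface, Adam10 and Adam17, had 9.83 against 9.40 and 17.7 against 14.5 FPKM. Ms4a4a and Ms4a6d, membrane proteins of the family tied to soluble TREM2 levels, had 4.75 against 3.50 and 35.3 against 27.8, and the coreceptor Plxna1 had 33 against 25.5. Hmgb1 had 10.8 against 8.91. Pglyrp1, a ligand of Trem1, had 0.062 FPKM and 0 in the 2 libraries.

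Genes known to depend on Trem2 in microglia lay on both sides of the median. Of 20 listed, 19 reached 1 FPKM, with a median log2 ratio of 0.16 and 12 above the median of all genes, 1 past the 0.32 mark on the higher side and 2 on the lower, beside 7.49% and 13.9% of all genes. Lpl, lipoprotein lipase, was the lowest, with 1007 FPKM against 1586, and the protease Ctsd had 8851 against 10792.5. Timp2 had 165 against 186 and the integrin Itgax 16.6 against 18.9. On the other side, the tetraspanin Cd9 had 138 FPKM against 98.6, Gpnmb, a glycoprotein of lysosome-rich macrophages, 1852 against 1381, Ctsl 59.6 against 45.7 and the lectin Lgals3 4147 against 3431.

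**Figure D4:**
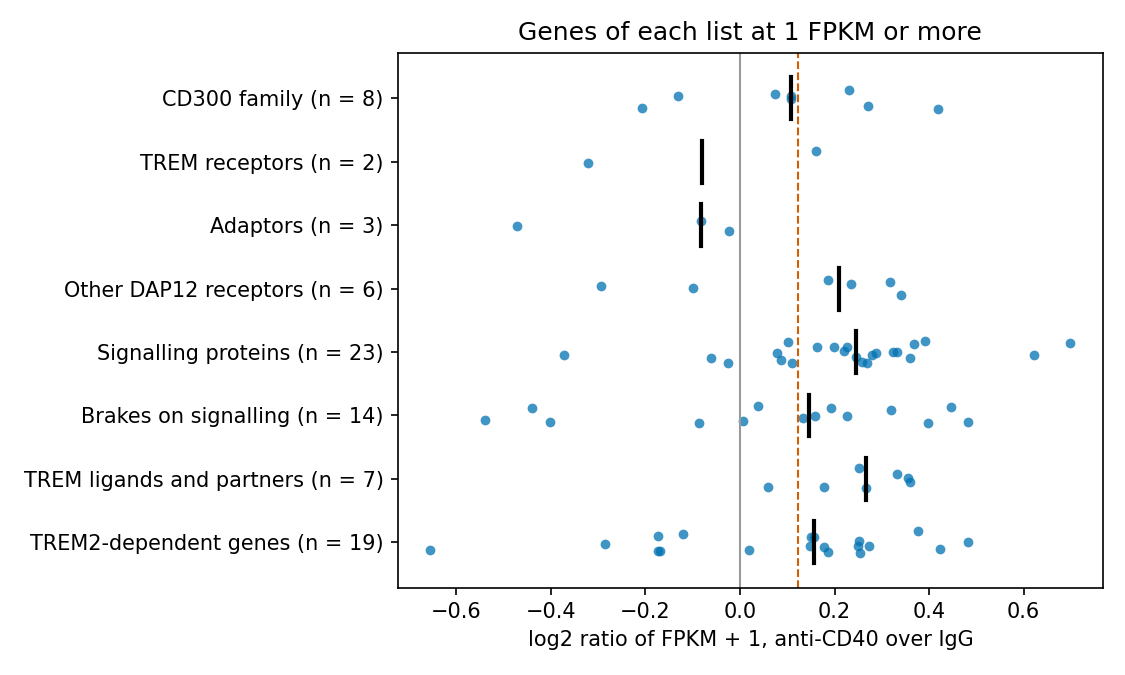
log2 ratio of FPKM + 1 (anti-CD40 over IgG) of each gene at 1 FPKM or more in 8 lists, each point a gene, n the number of such genes and the black bar the median of the list; the dashed line is the median of all genes, 0.12, and points are spread vertically for legibility. The signalling proteins centre on 0.24, whereas the 3 adaptors lie at or below -0.02. Tyrobp lies at 0.03 when both libraries are rescaled to the same sum. Measured from genes of like level, the adaptors lie at 0.00 (Tyrobp), -0.06 (Fcer1g) and -0.54 (Hcst). A median on that baseline was not computed for the signalling proteins.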

How the data were processed

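The deposited table gives each gene 1 value per library, read here as FPKM: the header names no unit, and the reading rests on StringTie, named beside HISAT2 2.1.0 and mm10 in the submitters' processing notes, and on column sums of 529104 (anti-CD40) and 547362 (IgG). What annotation, strand setting or filter the authors used is not given in the sources used here. Columns were assigned by name.

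Per the labels, each library used 1.3 ug of RNA. Depth came from FPKM times length of single-exon RefSeq genes: within 0.05 of a step of 0.5 bases, 75% of 88 low values (anti-CD40) and 84.4% of 64 (IgG) came out whole, where 10% would by even spread. The total was fitted to these same values, as the one that put the largest number of them on assumed read and fragment lengths. The 10% is for a total that was not fitted, so the comparison is no independent check. The depth assumes fragments of 300 bases. Fragments per gene used median GENCODE M21 transcript lengths.

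Differences are log2 ratios of FPKM + 1, counted at 2-fold and at 0.32 (log2) from the median among genes that reach 1 FPKM in a library (Python 3.11.15, SciPy 1.17.1). The 10 genes and all lists were chosen with earlier results of these data known. Named were every gene of the CD300, TREM and adaptor lists, and in other lists up to 4 genes with the largest ratios either way, Syk and Ptpn6. Alternatives were pseudocounts of 0.1 and 5, rescaling, centring, and no filter or a filter at 5 FPKM. Comparison with genes of like length, level or GC content, and a DAP12 sum with Cd300c2 and Cd300lb, were added after seeing the data.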

Additional observations from a re-analysis of the deposited data

How the results depend on the processing

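No member was 2-fold apart under any alternative run. Of the genes at 1 FPKM or more, Cd300c2 and Cd300lb stayed higher in all 8 alternatives for single genes. Hcst, Trem2, Cd300ld and Cd300lf stayed lower in the same 8, although the counting interval of Cd300lf spans 1 (0.606 to 1.27). A pseudocount cannot change the sign of a ratio, and centring and rescaling to the upper quartiles here lowered every ratio. These runs could therefore not have turned the lower genes. Cd300a turned negative when centred or set against genes of like length or GC content. Tyrobp turned positive when rescaled to equal sums, and was 0.00 against genes of like level. Members past 0.32 (log2) above the median numbered 1 with a pseudocount of 5 or against genes of like level (Cd300c2) and 2 without a filter on low values (Cd300c2 and Cd300e), against 0. Those below numbered 1 without a filter, against 3. Against genes of like level, the share of all genes past the mark was not computed. The median log2 ratio of members was -0.20 when centred, -0.20 against genes of like length and -0.21 against genes of like GC content. Over all genes, 24 higher and 30 lower at 2-fold became 88 and 75 with a pseudocount of 0.1, 4 and 10 with 5, 13 and 54 when centred, and 14 and 19 with a filter at 5 FPKM. The 718 higher and 1332 lower at 0.32 (log2) from the median became 396 and 681 with a pseudocount of 5, and 1856 and 904 without a filter. Centring only subtracts the median of all genes, 0.12, from every log2 ratio. Without a filter that median is 0, with 17186 of 34714 genes at 0 in both libraries. What else lies behind these shifts was not tested. No paired analysis was possible because each group held 1 library. Depth limits Cd300e, Cd300lf and Trem1.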

Other observations

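Neighbours of the members in these clusters were read as well. Between Treml2 and Trem2 on chromosome 17 lies B430306N03Rik, with 6.85 FPKM under anti-CD40 and 4.46 under IgG (1.54-fold higher, counting interval 1.23 to 1.92), beside Trem2 at 1837 against 2296. On chromosome 7, Nfkbid begins 1876 bases beyond Hcst and had 21.3 FPKM against 24.7, a ratio of 0.862 with an interval from 0.785 to 0.947, so that Hcst and Nfkbid were both lower while Tyrobp was near level. Both neighbours were picked for their position, and their values were seen before they were named.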
